A study of Mus musculus with 8 samples.

Results

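The lysosome and V-ATPase genes are a list of 45 genes chosen by symbol. It holds lysosomal membrane proteins, the acid proteases, glycosidases and lipid-handling proteins of the lumen, subunits of the proton pump that acidifies it, and 2 regulators. Of these, 42 had a tested probe among 9803 tested genes. Gla had a probe that was detected on 0 arrays, and Npc1 and Atp6v0c are not analysed here. The 42 genes were read by 64 tested probes, and 41 of them were detected on all 8 arrays. For the 10 genes with several probes, all probes of a gene had the same sign in each comparison.

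The RNA came from fat of obese C57Bl6 mice kept on a high-fat diet and fasted for 5 h before collection. There were 2 wild type samples (WT, 24 weeks old), 3 samples of mice lacking Il6 (IL6_KO, aged 25 weeks) and 3 of mice with an sgp130Fc transgene (sgp130Fc, aged 26 weeks). IL-6 is a cytokine of fat and immune cells, and sgp130Fc is a soluble receptor fused to an antibody Fc part that traps IL-6 bound to its soluble receptor and so blocks trans-signalling. High-fat feeding and fasting were common to every group, and age cannot be told apart from genotype. The promoter of the transgene, the fat depot and the sex are not given in the sources used here. The replicates are not stated to be separate animals, so a p-value here reflects the spread between samples, part of it possibly technical.

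Raw median intensity per array lay between 109 and 145, and 48.6% to 52.1% of probes were detected. IL6_KO replicate 2 stood apart, with a mean correlation across probes of 0.944 with the other arrays against 0.964 to 0.973 for the rest. Il6 itself was detected on 2 of 8 arrays, IL6_KO replicates 1 and 3, at log2 intensities of 5.17 and 5.16. It was not detected on the WT arrays, which lay at 4.40 and 4.47, nor on the sgp130Fc arrays. Its probe cannot serve as a check of the genotype, since its place relative to the deletion is unknown. The tissue label was checked with adipocyte markers. Adipoq had mean log2 intensities of 13.61, 12.96 and 13.39 in WT, IL6_KO and sgp130Fc, and Lep 14.28, 13.71 and 14.21. The probe of Fabp4, also an adipocyte marker, was detected on 2 of 8 arrays, both of sgp130Fc. It was near background in WT and IL6_KO, and passed the detection filter only through sgp130Fc. Whether this probe reports the level of the gene is unknown.

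Lysosomes are acidic organelles that take apart material delivered by endocytosis, phagocytosis and autophagy. Their acid comes from the V-ATPase, a rotary pump whose V1 sector splits ATP in the cytosol and whose V0 sector moves protons across the membrane. In obese fat, macrophages around dying adipocytes carry many lysosomes and use them to digest released lipid.

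The lysosome and V-ATPase genes lay mostly higher in IL6_KO than in WT, with sgp130Fc in between, but no single gene passed the test. In IL6_KO minus WT, 40 of 42 log2 differences were above 0, where 49.8% of all tested genes were. Their median was 0.53, from -0.64 for Smpd1 to 1.33 for Tcirg1, beside a median of -0.00 over all tested genes. In sgp130Fc minus WT, 36 of 42 were above 0 with a median of 0.27, against 49.2% of all genes. In sgp130Fc minus IL6_KO, 7 of 42 were above 0 with a median of -0.25, against 50.2% of all genes. Both comparisons with WT use the same 2 WT arrays, so their directions are not independent. The list was chosen with earlier results of these data known, so its shares beside those of all genes are a description.

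limma's moderated test with Benjamini-Hochberg adjustment over all probes called 0 of 42 genes in each of the 3 comparisons. The smallest adjusted p among them was 0.109 in IL6_KO minus WT, 0.549 in sgp130Fc minus WT and 0.115 in sgp130Fc minus IL6_KO. Over all probes, 0.248%, 0.0919% and 1.27% were called in these comparisons. At an unadjusted p under 0.05 there were 24, 2 and 8 of the 42 genes, where 20.6%, 8.23% and 17.8% of all probes were. Without IL6_KO replicate 3, 6 genes passed in IL6_KO minus WT (Lgmn, Gusb, Tcirg1, Atp6v0b, Atp6v1b2 and Atp6v1c1) and 2 in sgp130Fc minus IL6_KO (Tcirg1 and Atp6v1c1). That setting called 5.5% and 3.5% of all 14141 probes in these comparisons. With array weights, 1 gene (Tcirg1) and 7 genes passed, where 1.9% and 12.2% of all probes did.

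Arrays of each altered genotype lay apart from the WT arrays for many of the genes, but IL6_KO and sgp130Fc mostly overlapped with each other. All 3 IL6_KO arrays lay above both WT arrays in 26 of 42 genes, where 18.9% of all tested genes did so, and all lay below them in 1 (Smpd1), against 21.2% of all genes. All sgp130Fc arrays lay above both WT arrays in 23 of 42, against 13.8%. All sgp130Fc arrays lay below every IL6_KO array in 8 of 42, against 13%. They lay above every IL6_KO array in 3 of 42, against 1371 of 9803 tested genes. The group means stood in the order WT, sgp130Fc, IL6_KO in 30 of 42 genes, where 21.8% of all tested genes had that order.

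**Figure D1:**
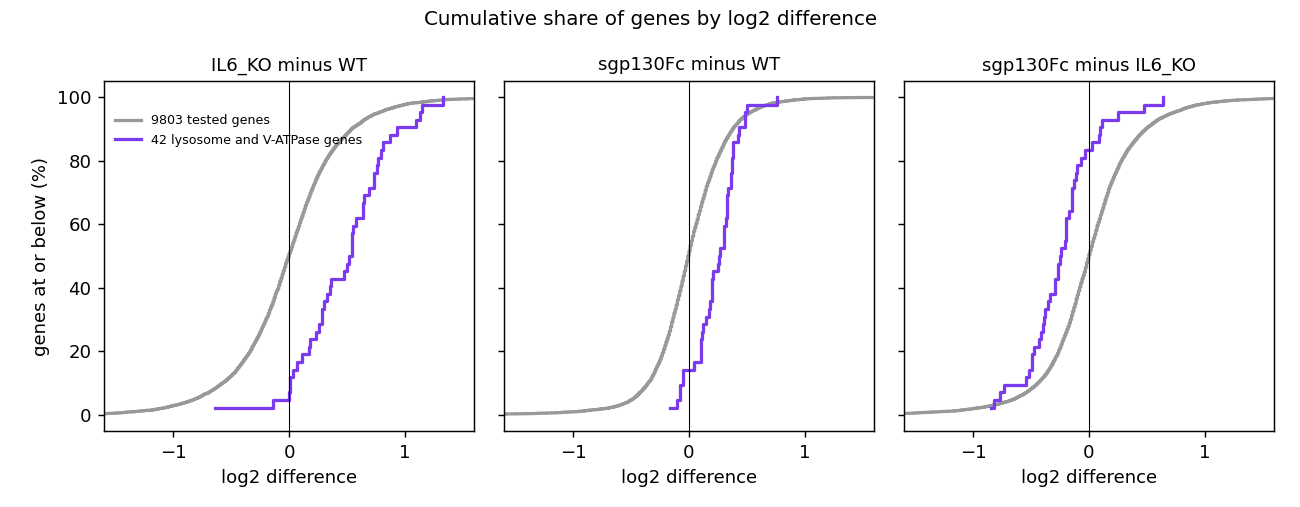
Cumulative share of genes (percent, y axis) by log2 difference (x axis) in the 3 comparisons, for the 42 lysosome and V-ATPase genes and for all 9803 tested genes. Against WT, the curve of the 42 genes lies mostly right of that of all genes, with medians of 0.53 and 0.27. In sgp130Fc minus IL6_KO it lies mostly to the left, with a median of -0.25.

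The size differed between arrays, within IL6_KO most of all. The median deviation of the 42 genes from the WT mean was 0.43, 0.82 and 0.28 on the 3 IL6_KO arrays and 0.24, 0.22 and 0.25 on the 3 sgp130Fc arrays, with -0.07 and 0.07 on the WT arrays. IL6_KO replicate 2 was the highest of the 8 arrays for 32 of the 42 genes (76.2%), where it was highest for 26.4% of all tested genes. WT replicate 1 was the lowest for 22 (52.4%), against 13.5% of all genes. Without IL6_KO replicate 2 the median of IL6_KO minus WT was 0.32, and the 2 remaining IL6_KO arrays lay above both WT arrays in 28 of 42 genes, against 21.2% of all genes. Without it, 13 of 42 differences in sgp130Fc minus IL6_KO were above 0 in place of 7.

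**Figure D2:**
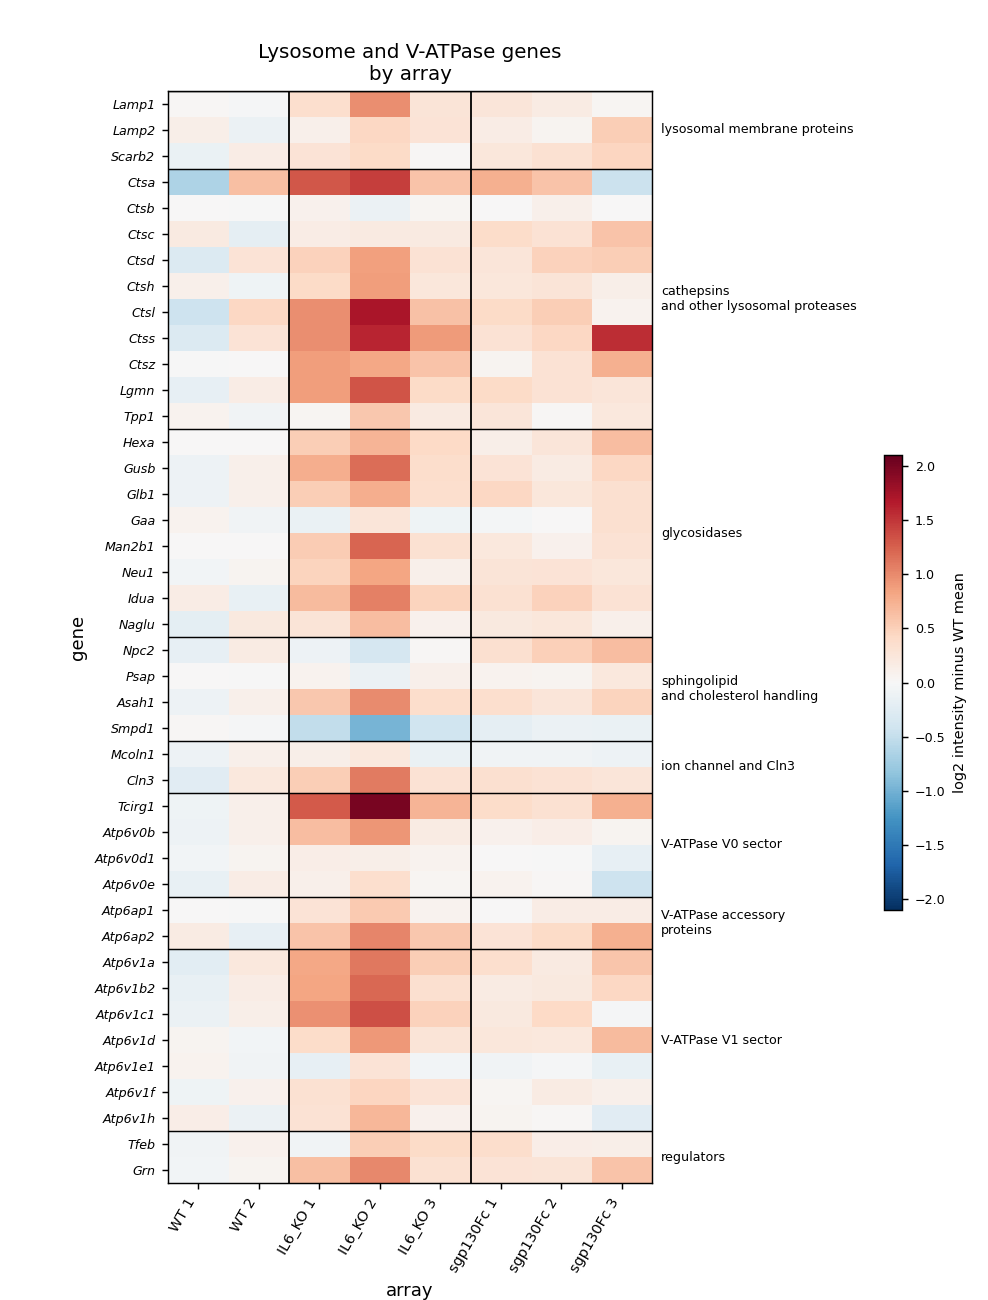
Log2 intensity of each of the 42 genes minus its WT mean (colour scale) on each of the 8 arrays (x axis), grouped by role (y axis). The column of IL6_KO replicate 2 is the darkest, Smpd1 is the one row below the WT mean on every IL6_KO and sgp130Fc array, and the sgp130Fc columns are mostly paler than that of IL6_KO replicate 2.

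Summed levels of some cell type marker lists had separate ranges in WT and IL6_KO. A sum of linear intensities weighs the brightest genes most. These were Lyz2 for macrophages (mean log2 intensity of 12.93 in WT), Dcn for fibroblasts (13.86) and Hba-a1 for erythroid cells (14.15). For Dcn alone the WT and IL6_KO arrays overlapped. In WT, Hba-a1 and the adipocyte marker Lep (14.28) lay near the highest normalized value of 14.44. All 8 tested macrophage markers of 10 had a log2 difference above 0 in IL6_KO minus WT and in sgp130Fc minus WT, with medians of 0.65 and 0.56, and 0 of them passed in either. Their summed intensity was 12500 to 13400 in WT, 19400 to 27900 in IL6_KO and 15800 to 19300 in sgp130Fc. Csf1r and Cd68 had no tested probe. Itgam, 1 of the 8 counted, was detected on 0 of 2 WT, 3 of 3 IL6_KO and 1 of 3 sgp130Fc arrays. It passed the detection filter only through the IL6_KO arrays, so its difference in IL6_KO minus WT is a description. The sum of 9 adipocyte markers, of which 0 passed in either comparison with WT, was 63400 to 65300 in WT, 20800 to 55200 in IL6_KO and 58700 to 59300 in sgp130Fc, the lowest being IL6_KO replicate 2. The part of these differences in the values of the lysosome and V-ATPase genes was not tested. In bulk tissue, more cells of a type and more RNA per cell cannot be told apart.

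Of the other marker lists, 5 had sums in IL6_KO that lay apart from WT. Mast cell markers summed to 557 to 770 in WT, 1250 to 3480 in IL6_KO and 165 to 467 in sgp130Fc, and 3 of the 3 tested fell in sgp130Fc minus IL6_KO (smallest limma adjusted p 0.0196). Fibroblast markers summed to 24300 to 24700, 28800 to 35600 and 24700 to 30700 in WT, IL6_KO and sgp130Fc. Endothelial markers summed to 7320 to 8890, 3250 to 5390 and 7030 to 8090, and erythroid markers to 23900 to 24700, 5710 to 13800 and 22300 to 24700. Smooth muscle markers summed to 6540 to 8990, 2060 to 4230 and 4760 to 5510. In IL6_KO minus WT, 2 of 3 erythroid markers passed, both lower (smallest limma adjusted p 0.025). In that comparison 0 mast cell, fibroblast, endothelial or smooth muscle markers passed. In sgp130Fc minus IL6_KO, 2 of 3 erythroid, 2 of 7 endothelial and 1 of 3 smooth muscle markers passed, all higher. Over all probes, 0.248% and 1.27% were called in these comparisons. The ranges of WT and IL6_KO overlapped for neutrophil markers (1050 to 1770 and 1130 to 5860), T cell markers (134 to 438 and 73.9 to 211) and B cell markers (77.3 to 82.5 and 75.1 to 117).

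**Figure D3:**
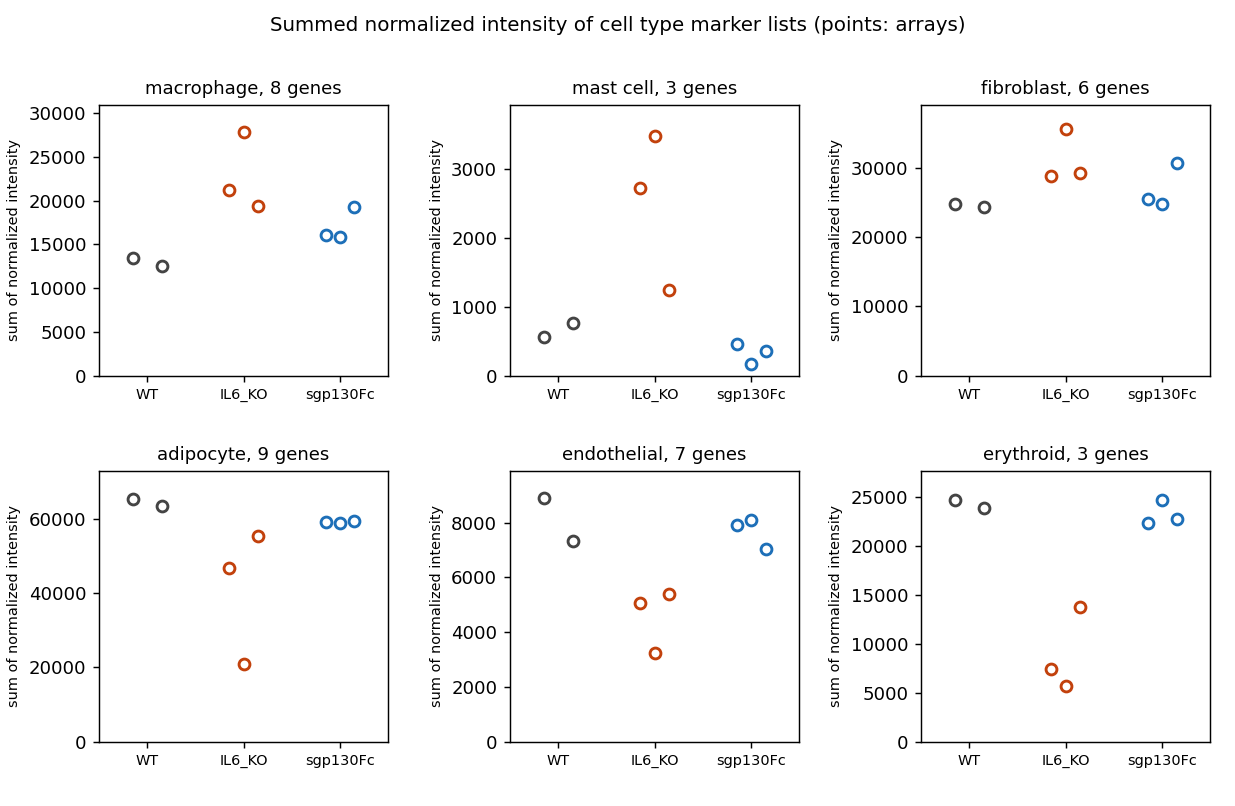
Summed normalized intensity (y axis, from 0) of 6 lists of cell type markers on each array (points) in the 3 groups. Macrophage sums were 19400 to 27900 in IL6_KO against 12500 to 13400 in WT, and adipocyte sums 20800 to 55200 against 63400 to 65300.

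Many lysosomal genes share a promoter element, the CLEAR element, to which TFEB and its relatives bind. Its core TCACGTG, on either strand, was looked for in RefSeq promoter sequences of GRCm38.p6 that run from 250 bases before to 50 bases after a transcript start. Of the 38 genes with an entry, 14 (36.8%) held it, where 5% of 17492 protein-coding genes did. The longer form TCACGTGA, which contains the core, was held by 8 of 38 (21.1%), where 1.41% of all these genes held it. The E-box CACGTG inside both was held by 15 of 38 (39.5%), against 8.91%. The list was chosen by function, so this share is a description of it.

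The 14 genes were Lamp1, Ctsa, Ctsd, Lgmn, Glb1, Gaa, Gla, Naglu, Mcoln1, Cln3, Atp6v0b, Atp6v0d1, Atp6v0e and Atp6v1a. Windows of 70 bases are shown for 10 of them, to set the element beside the expression of genes that carry it, and for Tcirg1, the gene with the largest difference, whose promoter held no core. Capitals mark the core and its longer form, and each sequence reads 5′ to 3′ on the strand of its gene.
Lamp1: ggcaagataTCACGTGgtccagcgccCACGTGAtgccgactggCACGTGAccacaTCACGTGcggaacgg
Ctsa: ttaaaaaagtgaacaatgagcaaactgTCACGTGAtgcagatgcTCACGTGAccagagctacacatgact
Ctsd: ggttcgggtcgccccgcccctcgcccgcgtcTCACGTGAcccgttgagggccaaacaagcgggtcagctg
Lgmn: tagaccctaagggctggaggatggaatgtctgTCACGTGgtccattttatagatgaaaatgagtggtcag
Cln3: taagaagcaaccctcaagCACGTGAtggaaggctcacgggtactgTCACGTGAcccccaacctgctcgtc
Mcoln1: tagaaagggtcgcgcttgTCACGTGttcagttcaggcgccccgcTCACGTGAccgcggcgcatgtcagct
Atp6v0b: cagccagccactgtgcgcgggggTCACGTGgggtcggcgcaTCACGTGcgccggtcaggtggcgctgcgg
Atp6v0d1: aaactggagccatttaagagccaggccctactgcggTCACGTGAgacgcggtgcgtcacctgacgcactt
Atp6v0e: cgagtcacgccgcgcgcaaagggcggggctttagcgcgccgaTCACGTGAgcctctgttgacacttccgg
Atp6v1a: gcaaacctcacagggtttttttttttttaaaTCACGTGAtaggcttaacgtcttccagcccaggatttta
Tcirg1: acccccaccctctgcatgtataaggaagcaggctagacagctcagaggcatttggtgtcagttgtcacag

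The Lamp1 window, with 4 cores, lies at chr8:13159090-13159159 on the plus strand, and those of Ctsa at chr2:164833733-164833802, Mcoln1 at chr8:3500429-3500498 and Atp6v0e at chr17:26676356-26676425 are also on the plus strand. On the minus strand lie the windows of Ctsd at chr7:142387888-142387957, Lgmn at chr12:102439105-102439174, Cln3 at chr7:126583334-126583403 and Atp6v0b at chr4:117887320-117887389. So do those of Atp6v0d1 at chr8:105566035-105566104, Atp6v1a at chr16:44139353-44139422 and Tcirg1 at chr19:3905231-3905300. Over the promoters of the 38 genes there were 23 separate cores, of which 20 lay wholly before the start.

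Expression differences of genes with and without the core overlapped. In IL6_KO minus WT the 13 tested genes with it had a median log2 difference of 0.54 (0.01 to 1.13), and the 23 without it 0.47 (-0.64 to 1.33). In sgp130Fc minus WT the medians were 0.18 and 0.33, and in sgp130Fc minus IL6_KO -0.27 and -0.20. The ranges of the genes with the core lay within those of the genes without it in all 3 comparisons. These values are descriptions, and no difference between the sets was tested.

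Tfeb, the transcription factor that binds this element, was the dimmest of the 42 genes. Its log2 intensities were 4.71 and 4.88 in WT, 4.72, 5.31 and 5.19 in IL6_KO, and 5.16, 4.93 and 4.91 in sgp130Fc. It was detected on 0 of 2 WT, 2 of 3 IL6_KO and 1 of 3 sgp130Fc arrays, and passed the detection filter only through IL6_KO. Its difference in IL6_KO minus WT, counted above among those of the 42 genes, is therefore a description. Its level in WT has only a bound, against which IL6_KO was at least 1.02-fold higher (limma adjusted p = 0.478). Here and below such a bound sets the mean of the brighter group against, per array of the dimmer group, the higher of the lowest detected signal and the gene's own. Grn, which encodes progranulin, a glycoprotein needed for normal lysosomal function, had a log2 difference of 0.65 ± 0.22 (SE) in IL6_KO minus WT (adjusted p = 0.161).

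By brightest probe, the largest difference of the list was that of the V-ATPase subunit Tcirg1. All 13 tested subunits and accessory proteins had a log2 difference above 0 in IL6_KO minus WT, with a median of 0.52. In sgp130Fc minus WT, 9 of the 13 were above 0, with a median of 0.11, and in sgp130Fc minus IL6_KO, 0 of 13 were above 0, with a median of -0.27. For the 29 genes outside the pump the medians were 0.54, 0.30 and -0.20. The 4 V0 genes had a median of 0.37 in IL6_KO minus WT and the 7 V1 genes 0.52.

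Tcirg1 encodes the a3 subunit of V0, the form that acidifies the bone surface under osteoclasts and is found in lysosomes of macrophages. Its log2 intensities were 9.97 and 10.16 in WT, 11.34, 12.06 and 10.77 in IL6_KO, and 10.45, 10.38 and 10.81 in sgp130Fc. Every IL6_KO and sgp130Fc array lay above both WT arrays, and IL6_KO replicate 3 lay below the highest sgp130Fc array. The log2 difference was 1.33 ± 0.33 (SE; 95% interval 0.58 to 2.08) in IL6_KO minus WT, 2.51-fold, with an adjusted p of 0.109. It was 0.48 ± 0.33 in sgp130Fc minus WT (adjusted p = 0.755) and -0.85 ± 0.30 in sgp130Fc minus IL6_KO (adjusted p = 0.194). Its other 3 probes gave 1.37, 1.47 and 1.37 in IL6_KO minus WT. The first of these was detected on 0 of 2 WT arrays and passed the detection filter only through the IL6_KO arrays. The second was detected on 1 of 2 WT arrays, and the third on all 8 arrays. With array weights it passed in IL6_KO minus WT, at 1.25 (adjusted p = 0.0476), and in sgp130Fc minus IL6_KO, at -0.86 (adjusted p = 0.0188). Without IL6_KO replicate 3 it passed in IL6_KO minus WT at 1.64 (adjusted p = 0.0264) and in sgp130Fc minus IL6_KO at -1.16 (adjusted p = 0.047).

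Of the other V0 genes, Atp6v0b, a subunit of the proteolipid ring, had a log2 difference of 0.58 ± 0.22 in IL6_KO minus WT. Atp6v0d1, which couples the ring to the central stalk, had 0.11 ± 0.15, with a 95% interval of -0.22 to 0.45, and Atp6v0e 0.17 ± 0.21. The other 3 probes of Atp6v0d1 gave 0.23, 0.48 and 0.02. The widely expressed Atp6v0e has a paralog, Atp6v0e2, that lay the other way. Its log2 intensities were 8.34 and 8.41 in WT, 6.59, 5.62 and 7.49 in IL6_KO, and 7.48, 7.62 and 7.14 in sgp130Fc, so that every IL6_KO and sgp130Fc array was below both WT arrays. This gave a log2 difference of -1.80 ± 0.44 in IL6_KO minus WT and did not pass (adjusted p = 0.104). It passed at -2.27 without IL6_KO replicate 3 (adjusted p = 0.0196) and at -1.72 with array weights (adjusted p = 0.042).

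In the V1 sector, Atp6v1c1, whose product helps to hold V1 on V0, had log2 intensities of 8.87 and 9.11 in WT, 9.95, 10.34 and 9.47 in IL6_KO, and 9.20, 9.41 and 8.96 in sgp130Fc. The IL6_KO arrays lay above all others, and the sgp130Fc and WT ranges overlapped. The log2 difference was 0.93 ± 0.26 in IL6_KO minus WT (1.91-fold, adjusted p = 0.118) and -0.73 ± 0.23 in sgp130Fc minus IL6_KO (adjusted p = 0.161). Without IL6_KO replicate 3 these were 1.16 (adjusted p = 0.0349) and -0.96 (adjusted p = 0.0476), and with array weights the latter was -0.64 (adjusted p = 0.0314).

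Atp6v1a encodes the catalytic A subunit. It lay at log2 intensities of 10.32 and 10.76 in WT, 11.36, 11.65 and 11.05 in IL6_KO, and 10.90, 10.73 and 11.13 in sgp130Fc. The IL6_KO arrays were all above WT, and sgp130Fc overlapped with both groups. Its fitted log2 difference was 0.81 ± 0.23 in IL6_KO minus WT (1.76-fold, adjusted p = 0.123) and 0.38 ± 0.23 in sgp130Fc minus WT (adjusted p = 0.715).

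The partner of the A subunit in the ATP-splitting head, Atp6v1b2, had a log2 difference of 0.79 ± 0.25 in IL6_KO minus WT (adjusted p = 0.148). Of the stalk subunits, Atp6v1d had 0.52 ± 0.23, Atp6v1f 0.35 ± 0.15 and Atp6v1e1 0.03 ± 0.18, and the regulatory Atp6v1h 0.36 ± 0.21. By their brightest probes, subunits of the same pump had differences from 0.03 to 1.33.

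Of the accessory proteins, Atp6ap2, also known as the prorenin receptor, lay at log2 intensities of 11.27 and 10.93 in WT, 11.70, 12.12 and 11.66 in IL6_KO, and 11.38, 11.50 and 11.85 in sgp130Fc. Every IL6_KO and sgp130Fc array was above both WT arrays. The log2 difference was 0.73 ± 0.22 in IL6_KO minus WT (1.66-fold, adjusted p = 0.137) and 0.48 ± 0.22 in sgp130Fc minus WT (adjusted p = 0.64). Its other 3 probes, which were dimmer, gave 1.45, 1.47 and 1.48 in IL6_KO minus WT, and the mean of all its probes gave 1.28. Atp6ap1, which helps to assemble V0, had 0.30 ± 0.18 in IL6_KO minus WT.

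**Figure D4:**
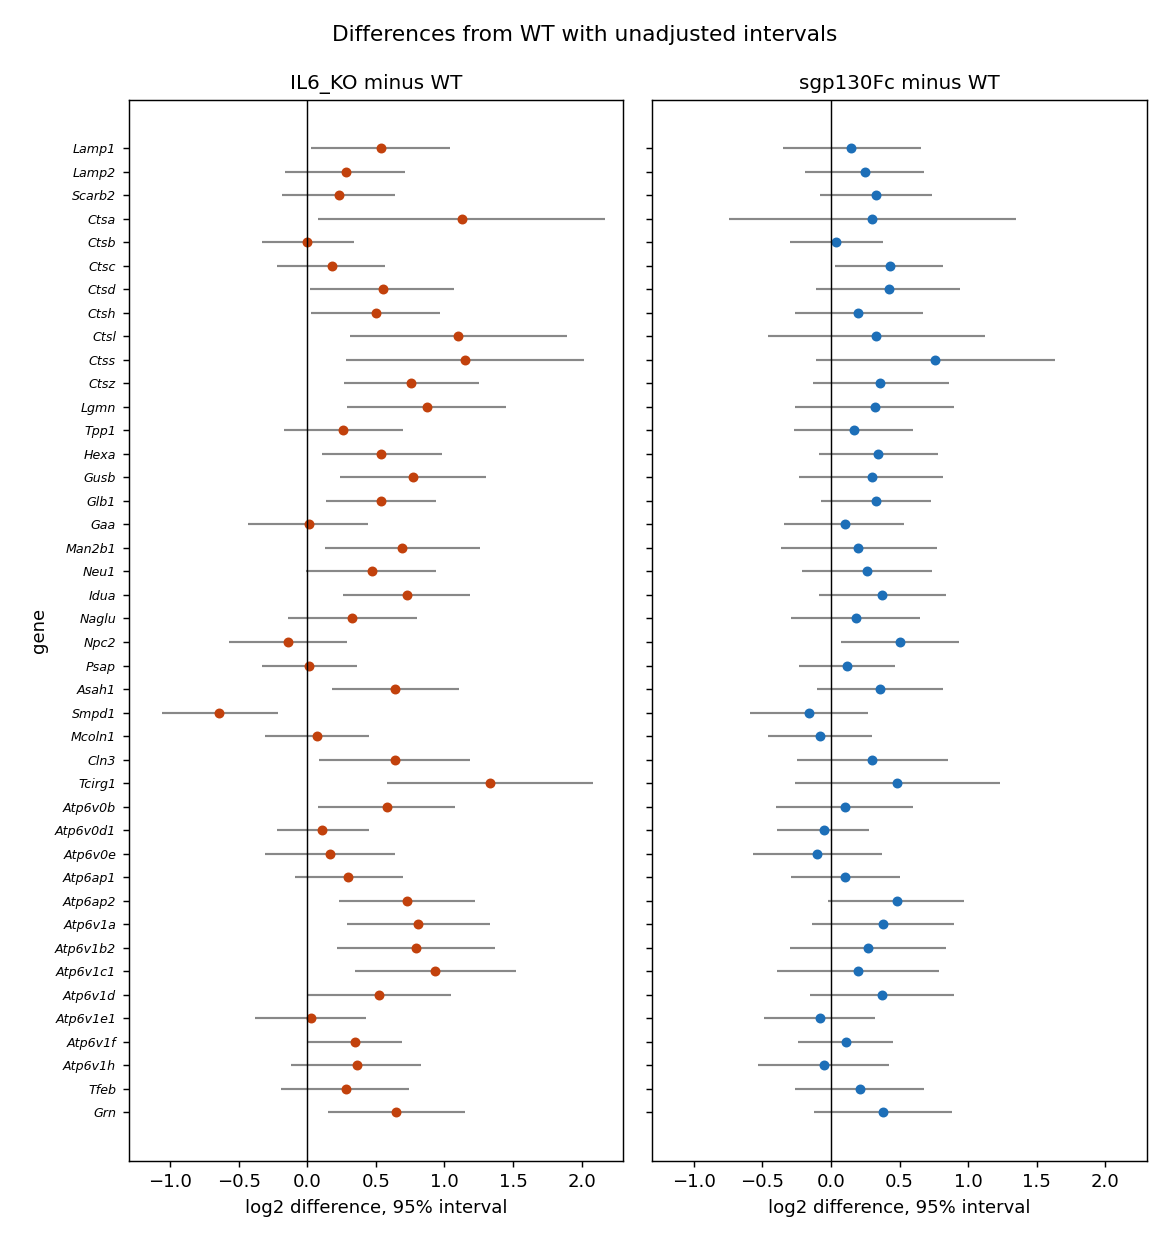
Log2 differences (points, x axis) with unadjusted 95% intervals (lines) for the brightest probe of the 42 genes in IL6_KO minus WT and sgp130Fc minus WT. Points lie right of 0 for 40 and 36 of the 42 genes, Tcirg1 is the farthest right in IL6_KO minus WT at 1.33, and 0 of the 42 passed after adjustment.

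Among the proteases, all 10 genes had a log2 difference above 0 in IL6_KO minus WT, with a median of 0.66, and all 10 in sgp130Fc minus WT, with a median of 0.33. Ctss, the cathepsin that trims the invariant chain of MHC class II in antigen-presenting cells, had log2 intensities of 9.61 and 10.18 in WT, 10.86, 11.49 and 10.78 in IL6_KO, and 10.20, 10.32 and 11.44 in sgp130Fc. The IL6_KO arrays were all above WT, the lowest sgp130Fc array lay just above the highest WT array, and sgp130Fc replicate 3 lay among the IL6_KO arrays. The macrophage marker sum was also highest on that array within sgp130Fc, at 19300 against 16100 and 15800. So were the fibroblast sum, at 30700 against 25500 and 24700, and the adipocyte, T cell and B cell sums. A link of Ctss to any of these was not tested. The log2 difference of Ctss was 1.15 ± 0.39 in IL6_KO minus WT (2.21-fold, adjusted p = 0.158) and 0.76 ± 0.39 in sgp130Fc minus WT (adjusted p = 0.677).

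Ctsc, the dipeptidyl peptidase that activates granule proteases of immune cells, had log2 intensities of 11.08 and 10.70 in WT, 11.05, 11.08 and 11.08 in IL6_KO, and 11.27, 11.20 and 11.49 in sgp130Fc. All sgp130Fc arrays lay above all others, and the IL6_KO arrays lay at or near the higher WT array. The log2 difference was 0.43 ± 0.17 in sgp130Fc minus WT (adjusted p = 0.578), 0.25 ± 0.16 in sgp130Fc minus IL6_KO (adjusted p = 0.435) and 0.18 ± 0.17 in IL6_KO minus WT.

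Other proteases ranged widely in IL6_KO minus WT. Ctsa, which also stabilizes beta-galactosidase and neuraminidase, had 1.13 ± 0.46, with WT arrays at 6.75 and 8.02. This became 0.49 without WT replicate 1 and 1.77 without WT replicate 2, and its other probes gave 0.60 and 0.25. The probe that gave 0.60 was detected on 0 of 2 WT arrays. The endopeptidase Ctsl had 1.10 ± 0.35, the asparaginyl endopeptidase Lgmn 0.87 ± 0.26 and the carboxypeptidase Ctsz 0.76 ± 0.22. The aspartic protease Ctsd had 0.55 ± 0.23, Ctsh 0.50 ± 0.21 and the tripeptidyl peptidase Tpp1 0.26 ± 0.19. Ctsb had 0.00 ± 0.15, but its arrays lay between 13.97 and 14.19, near the highest normalized value of 14.44.

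Among the glycosidases, all 8 tested genes had a difference above 0 in IL6_KO minus WT, with a median of 0.54, and in sgp130Fc minus WT, with a median of 0.28. Idua, which cleaves iduronic acid from dermatan and heparan sulfate, had log2 intensities of 8.07 and 7.76 in WT, 8.59, 8.97 and 8.38 in IL6_KO, and 8.24, 8.40 and 8.23 in sgp130Fc. Both other groups lay above WT on every array, and IL6_KO replicate 3 lay just below sgp130Fc replicate 2. Its fitted log2 difference was 0.73 ± 0.21 in IL6_KO minus WT (1.66-fold, adjusted p = 0.123) and 0.37 ± 0.21 in sgp130Fc minus WT (adjusted p = 0.692).

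Gusb, beta-glucuronidase, had a log2 difference of 0.77 ± 0.23 in IL6_KO minus WT, and the alpha-mannosidase Man2b1 0.69 ± 0.25. The other probes of Gusb gave 1.31 and 1.16. Hexa, a beta-hexosaminidase subunit, and the beta-galactosidase Glb1 both had 0.54. The sialidase Neu1 had 0.47 ± 0.21 and Naglu, of heparan sulfate breakdown, 0.33 ± 0.21. Gaa, which breaks down glycogen, had 0.01 ± 0.19, with a 95% interval of -0.43 to 0.44.

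Sphingolipid and cholesterol handling was the role in which directions were mixed, with 2 of 4 tested genes above 0 in IL6_KO minus WT and a median of -0.06. Smpd1, acid sphingomyelinase, was the one gene of the 42 whose IL6_KO arrays all lay below WT. Its log2 intensities were 10.89 and 10.84 in WT, 10.34, 9.89 and 10.44 in IL6_KO, and 10.67, 10.73 and 10.72 in sgp130Fc. The 3 groups did not overlap, with sgp130Fc between. The log2 difference was -0.64 ± 0.19 in IL6_KO minus WT (1.55-fold lower, adjusted p = 0.135), -0.16 ± 0.19 in sgp130Fc minus WT (adjusted p = 0.864) and 0.48 ± 0.17 in sgp130Fc minus IL6_KO (adjusted p = 0.197).

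Asah1, acid ceramidase, which acts on the ceramide that acid sphingomyelinase releases, had a log2 difference of 0.64 ± 0.20 in IL6_KO minus WT (adjusted p = 0.147). Its second probe gave 1.10, and the mean of both 0.87. The other probes of Smpd1 gave -0.32, with overlapping groups, and -0.82.

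Npc2 binds cholesterol in the lumen and hands it to Npc1 for export. Its log2 intensities were 11.89 and 12.24 in WT, 11.96, 11.72 and 12.10 in IL6_KO, and 12.41, 12.57 and 12.72 in sgp130Fc. All sgp130Fc arrays lay above all others, and the IL6_KO and WT ranges overlapped. This gave a log2 difference of 0.64 ± 0.17 in sgp130Fc minus IL6_KO (95% interval 0.25 to 1.02, adjusted p = 0.115), the smallest p of the list in that comparison. With array weights it was 0.57 (adjusted p = 0.02). It was 0.50 ± 0.19 in sgp130Fc minus WT (adjusted p = 0.549) and -0.14 ± 0.19 in IL6_KO minus WT (adjusted p = 0.723).

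Psap, the precursor of the saposins that present sphingolipids to their hydrolases, was the brightest of the 42 genes. Its log2 intensities were 14.19 and 14.17 in WT, 14.25, 14.05 and 14.28 in IL6_KO, and 14.26, 14.24 and 14.40 in sgp130Fc. The differences were 0.01 ± 0.15 in IL6_KO minus WT and 0.12 ± 0.15 in sgp130Fc minus WT, and neither passed. As for Ctsb, these values lie near the upper end of the scale.

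**Figure D5:**
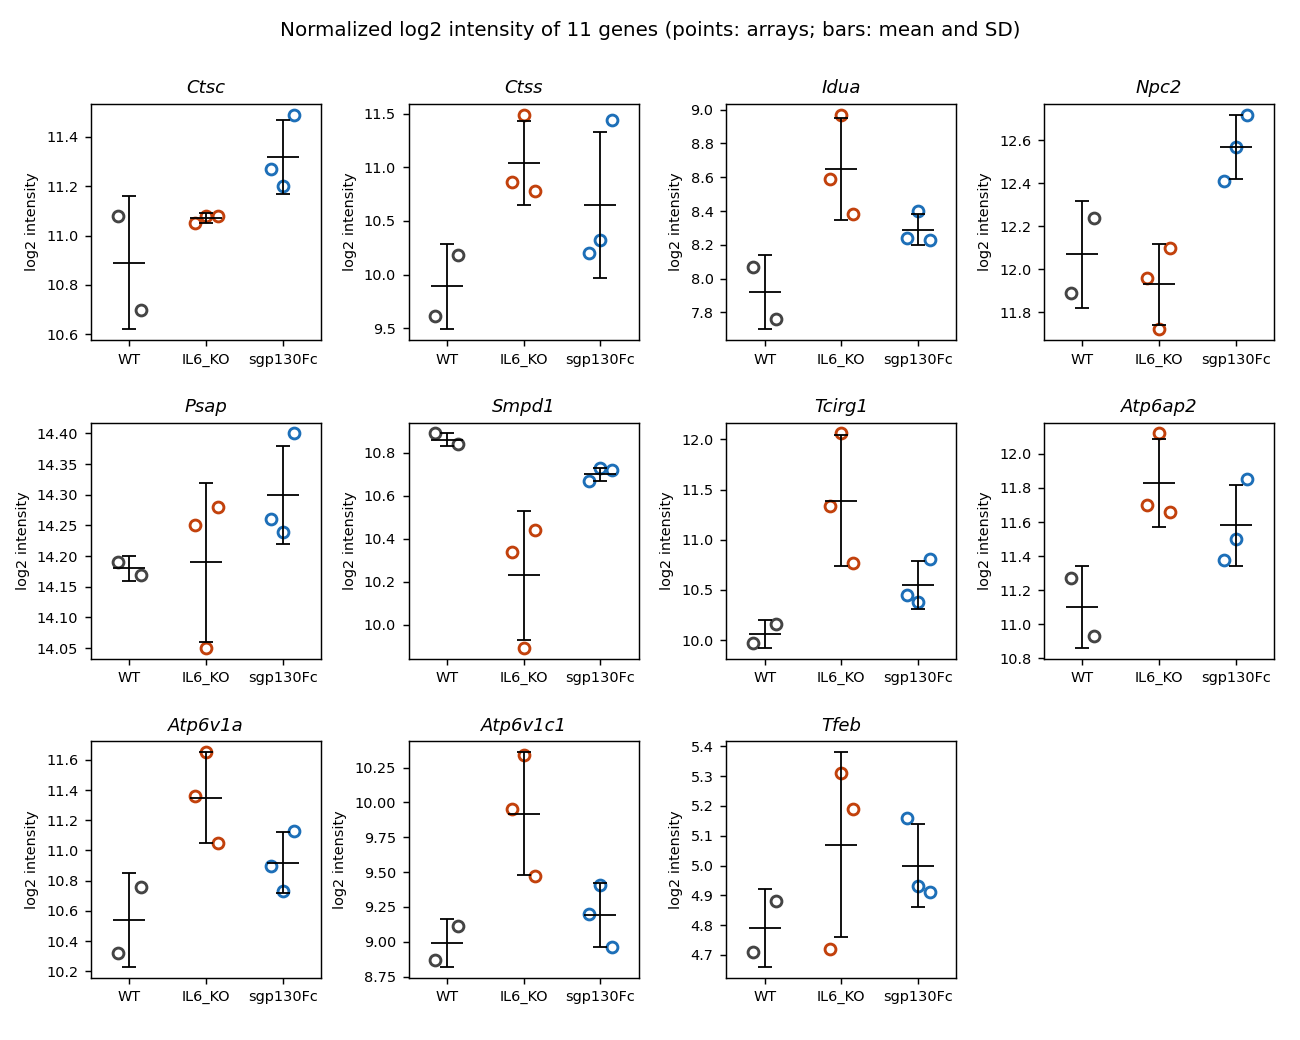
Normalized log2 intensity (y axis, separate scale for each gene) of 11 genes on each array (points), with group mean and SD (bars), in WT (n = 2), IL6_KO (n = 3) and sgp130Fc (n = 3). Tcirg1 lies at 9.97 and 10.16 in WT and from 10.77 to 12.06 in IL6_KO, Smpd1 runs the other way, and Npc2 and Ctsc are highest in sgp130Fc.

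Of the membrane proteins, Lamp1, a heavily glycosylated protein that lines the lysosomal membrane, had a log2 difference of 0.54 ± 0.22 in IL6_KO minus WT, its relative Lamp2 0.28 ± 0.19 and Scarb2, which carries glucocerebrosidase to the lysosome, 0.23 ± 0.18. The other probes of Lamp2 gave 0.21, 0.68 and 1.03, and the mean of all its probes 0.55. Cln3, a lysosomal membrane protein mutated in a childhood neurodegenerative disease, had 0.64 ± 0.24, and the calcium channel Mcoln1 0.07 ± 0.17.

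Genes of the same organelle outside the 45 were read from 6 further lists. Of 19 tested lysosomal enzymes, 14 had a log2 difference above 0 in IL6_KO minus WT, with a median of 0.27, and 1 passed in each comparison with WT. Ctsk, the collagen-degrading cathepsin of osteoclasts and some macrophages, had log2 intensities of 10.78 and 11.46 in WT, 12.82, 13.50 and 12.67 in IL6_KO, and 11.70, 11.53 and 11.65 in sgp130Fc. It rose by 1.88 ± 0.28 in IL6_KO minus WT (adjusted p = 0.0467) and had a log2 difference of -1.37 ± 0.25 in sgp130Fc minus IL6_KO (adjusted p = 0.0385). The first call was lost under 11 of 20 alternatives and the second under 7, with adjusted p values of up to 0.234 and 0.167.

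Ctse, an aspartic protease of endosomes in immune and gastric cells, was detected on the sgp130Fc arrays alone. It passed the detection filter only through that group, so it had to differ, and its values are a description. Its log2 intensities there were 6.84, 7.07 and 7.69, and it was not detected on the 2 WT and 3 IL6_KO arrays, whose measured means were 4.62 and 4.46. It was at least 4.46-fold higher than in WT (adjusted p = 0.00904) and at least 4.54-fold higher than in IL6_KO (adjusted p = 0.000862). The call against WT was lost under 4 of 19 alternatives and the call against IL6_KO under 0 of 19.

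In the other 5 lists limma called 0 genes in each comparison, and in IL6_KO minus WT the unadjusted p was under 0.05 for 5 membrane proteins, 2 sorting genes, 2 V-ATPase subunits, 5 MiT and sensing genes and 3 autophagy genes, of 13, 12, 7, 12 and 15 tested. Over all probes 20.6% had such a p. Of 13 tested membrane proteins and transporters, 11 were above 0 in IL6_KO minus WT, with a median of 0.28. Among them Slc11a1, the metal transporter of phagocyte endosomes, had 1.16 ± 0.26 (adjusted p = 0.0918) and the chloride-proton exchanger Clcn7 0.86 ± 0.22 (adjusted p = 0.112). Of 12 sorting genes, 7 were above 0, with a median of 0.12, and the mannose 6-phosphate receptor Igf2r, which brings hydrolases to endosomes, had 0.98 ± 0.21 (adjusted p = 0.085). The adaptor Gga3 had 0.63 ± 0.19 (adjusted p = 0.14). Without IL6_KO replicate 3, Slc11a1, Clcn7 and Igf2r passed, at 1.42, 0.99 and 1.12, and with array weights Slc11a1 and Igf2r passed, at 1.16 and 0.95.

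Among 7 other V-ATPase subunits, 5 were above 0 in IL6_KO minus WT, with a median of 0.07. Atp6v1c2, an isoform of Atp6v1c1 with a narrower tissue range, had -0.50 ± 0.18 in IL6_KO minus WT (adjusted p = 0.17) and was near background. Among 12 genes of the MiT factor family and amino acid sensing, 8 were above 0, with a median of 0.28. Mitf, a relative of Tfeb, had log2 intensities of 6.08 and 5.99 in WT, 7.24, 7.97 and 7.03 in IL6_KO, and 6.66, 6.73 and 6.82 in sgp130Fc. The 3 groups did not overlap, with a difference of 1.38 ± 0.26 in IL6_KO minus WT (adjusted p = 0.0693). It passed without IL6_KO replicate 2, at 1.10 (adjusted p = 0.0482), without IL6_KO replicate 3, at 1.57, and with array weights, at 1.23.

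Tfec, the family member expressed mainly in macrophages, was detected on 3 of 3 IL6_KO arrays and on 0 of the WT and sgp130Fc arrays. Its log2 intensities in IL6_KO were 5.41, 5.68 and 5.07, at least 1.27-fold above WT (adjusted p = 0.0823) and at least 1.26-fold above sgp130Fc (adjusted p = 0.0831). It passed the detection filter only through the IL6_KO arrays, so it had to differ, and these values are a description.

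Of 15 tested autophagy genes, 6 were above 0 in IL6_KO minus WT, with a median of -0.07. Map1lc3a, an LC3 protein of the autophagosome membrane, had -1.18 ± 0.29 (adjusted p = 0.103) and Uvrag, a partner of a lipid kinase of autophagy, -0.49 ± 0.23 (adjusted p = 0.264). Map1lc3a passed without IL6_KO replicate 3, at -1.40 (adjusted p = 0.0345). The difference between this list and the 42 genes was not tested.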

How the data were processed

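Adipose RNA of 8 samples was measured on Illumina bead arrays, 1 sample per array. The deposited probe intensity is linear, neither background-subtracted nor normalized, and the authors gave a detection p-value beside each value, per the file headers. The submitters' processing notes name GenomeStudio and limma without versions, and the authors also deposited normalized log2 values, which are an alternative here.

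The deposited intensities were background-corrected and quantile-normalized with neqc in limma 3.58.1 (R 4.3.3), with an offset of 16. The result lay within 0.0548 of the deposited log2 values. A probe was kept when its detection p was below 0.05 on 2 or more of the 8 arrays, leaving 14141 probes for 9803 genes. A model with group as its only term was fitted (lmFit, eBayes) to the 8 arrays together, and 3 comparisons were tested on both sides, with Benjamini-Hochberg adjustment over all probes and a threshold of 0.05. The brightest probe represents a gene. Levels are normalized log2 intensities, and sums are of linear normalized intensities.

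Precision is limited by the number of arrays; a member's log2 difference from WT had a median standard error of 0.21. Probe names came from the platform annotation, in which 23978 of 25697 probes had 1 symbol. The fit was tested on simulated data with independent noise and planted differences larger than that of any tested member. That test does not cover differences of the members' size, or an array that stands apart from the rest. Figures were drawn with matplotlib.

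The members and the gene lists were chosen with earlier results of these data known. Values on every array are given for the 4 members of smallest p in each comparison, for the brightest and the dimmest member and for Tfeb; other pathway genes are named where they passed or were the 2 of smallest p in their list. Alternatives covered background correction, normalization, offset, detection filter, variance model, array weights, probe choice, the groups compared alone, the replicate number as a block and leaving out each array. Counts of positive differences under these alternatives, and counts of separated groups without IL6_KO replicate 2, were added after seeing the data.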

Additional observations from a re-analysis of the deposited data

Results flagged for a closer look

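Ctsk differed between the 2 altered genotypes in a direct test of sgp130Fc against IL6_KO: the log2 difference was -1.37 (limma adjusted p = 0.0385), while it was 1.88 in IL6_KO minus WT and 0.51 in sgp130Fc minus WT.

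Ctse also differed in that test, with a fitted log2 difference of 2.74 (limma adjusted p = 0.000862). It passed the detection filter only through the sgp130Fc arrays, so it had to differ. Its level in IL6_KO and WT has only a bound, so the fold is at least 4.54 against IL6_KO.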

How the results depend on the processing

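Over 20 alternatives, 0 of the 42 genes passed in sgp130Fc minus WT under any. In IL6_KO minus WT, 1 gene passed with array weights, and 0 to 6 passed when an array was left out, 6 without IL6_KO replicate 3. In sgp130Fc minus IL6_KO, 7 passed with array weights, and 0 to 2 when an array was left out, 2 without IL6_KO replicate 3. The median difference in IL6_KO minus WT was 0.32 to 0.64 when an array was left out, the lowest without IL6_KO replicate 2. Over all alternatives the median was 0.17 to 0.33 in sgp130Fc minus WT and -0.33 to -0.11 in sgp130Fc minus IL6_KO. The number of genes above 0 was 37 to 41 and 33 to 39 of 42 against WT, and in sgp130Fc minus IL6_KO it was 6 to 13 when an array was left out. The causes were not tested.

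Calls over all probes moved more: 35 in IL6_KO minus WT became 5 with the compared groups alone and 778 without IL6_KO replicate 3. The 13 calls in sgp130Fc minus WT ranged from 3 to 28, and the 179 in sgp130Fc minus IL6_KO from 24 to 1730, the highest in both with array weights.

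Differences near 0 in IL6_KO minus WT changed sign. Scaling to the 75th percentile gave -0.06 for Ctsb, -0.07 for Psap and -0.03 for Atp6v1e1. Array weights gave -0.10 for Gaa and -0.11 for Atp6v1e1. When an array was left out the range was -0.04 to 0.06 for Ctsb, -0.01 to 0.37 for Ctsc, -0.12 to 0.08 for Gaa, -0.31 to 0.04 for Npc2, -0.03 to 0.09 for Psap, -0.04 to 0.18 for Mcoln1, -0.11 to 0.12 for Atp6v1e1 and -0.32 to 0.01 for Ctse. In sgp130Fc minus IL6_KO, Tfeb became 0.07 with that scaling, 0.18 with array weights and -0.25 to 0.05 when an array was left out, and Atp6v1c2 became 0.03 with that scaling.

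The replicate numbers are shared between groups, but same-numbered arrays did not all deviate together (residual correlations of -0.353 to 0.18). Residuals within a group are tied to each other, with a correlation of -1 between the 2 WT arrays. These values therefore cannot decide whether the numbers mark a pairing or a batch. With the replicate number as a block, 0 of the 42 genes passed in each comparison, the median in IL6_KO minus WT was 0.57, Gaa and Psap became -0.02 and -0.03, and probes called fell from 35 to 12, from 13 to 5 and from 179 to 79. Ctsk (1.96 and -1.37) and Ctse against WT (2.48) no longer passed.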
